A study of Canis lupus familiaris with 6 samples.

Results

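Amino acid transporter genes of 7 solute carrier (SLC) families were followed in MDCK cells, a canine kidney epithelial line, across 4 states of the cells. The genes are those whose platform symbol begins with SLC1A, SLC3A, SLC6A, SLC7A, SLC36A, SLC38A or SLC43A and a number, which gave 59 of the 15947 genes with a symbol of their own. Of these, 58 are carriers or carrier subunits. The other, SLC7A6OS, is named for its place opposite SLC7A6 and is no carrier, so it was left out of all counts. Each of the 59 had 1 probe set, and none shared its values with another probe set. The rule reads names alone, but the families were picked with earlier results of these data known.

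Per the labels, the untreated group has 2 arrays, and 2 more hold cells passaged every few days for 30 days with 5 ng/ml of the cytokine TGFb (transforming growth factor beta). One further array holds cells given 5-AZA for 72 hours after TGFb, and another holds cells 30 days after TGFb was withdrawn. 5-AZA commonly stands for 5-azacytidine or its deoxy form, inhibitors of DNA methylation, and the labels name neither form nor whether TGFb stayed on during it. All cells were grown in DMEM with serum. Whether replicate arrays came from separate cultures is not stated, so p-values measure the spread between these arrays, which may be technical. The submitters called the untreated and withdrawn cells epithelial and the TGFb cells mesenchymal.

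Cells take up and exchange amino acids through carriers with distinct drives. The SLC1 and SLC38 families, and most of SLC6, couple uptake to sodium, some SLC36 carriers couple it to protons, and SLC43 carriers are facilitators. Light chains of the SLC7 family reach the membrane only when joined to a heavy chain of the SLC3 family, and then swap one amino acid for another. In the kidney such carriers recover filtered amino acids along the tubule. In most growing cells they feed protein synthesis, glutathione synthesis and the mTORC1 growth pathway, and a subset is induced by the transcription factor ATF4 when amino acids run short.

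The deposited values are log-scale signals per probe set, read here as log2 from their range of 0.937 to 13.1. Array medians lay between 4.97 and 5.01. Signals of different probe sets do not rank their transcripts, because each probe set has its own efficiency. No background level is given, so it is unknown which carriers lay under the limit of detection. By the median of all probe set means, 4.99, 21 carriers had brighter probe sets and 37 dimmer ones, a split by array signal and not by RNA amount. All differences below come from 1 limma fit over 32293 probe sets, with standard errors after ± and Benjamini-Hochberg adjusted p-values. A gene was called at an adjusted p under 0.05. For the unreplicated 5-AZA and withdrawal arrays the fit takes the spread seen in the replicated groups. The comparisons share arrays, and an exact permutation test of 2 arrays against 2 cannot go below p = 0.333.

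The labels were checked on markers. The mean log2 signal of 7 epithelial markers was 8.91 and 8.94 on the untreated arrays and 9.03 after withdrawal, against 5.95 and 6.52 under TGFb and 6.58 with 5-AZA. That of 7 fibroblast markers was 4.86 to 5.23 untreated, 7.73 to 7.80 under TGFb, 8.42 with 5-AZA and 5.67 after withdrawal. Under TGFb 4 of the 7 epithelial markers fell, while 5 of the 7 fibroblast markers rose and 1 fell. Leukocyte (5 measured) and neuronal markers (4 measured) had means of 3.67 to 3.84 and 4.43 to 5.08. The neuronal mean was higher on the single arrays, at 5.06 with 5-AZA and 5.08 after withdrawal, against 4.67 to 4.72 untreated and 4.43 to 4.56 under TGFb. SNAP25 among them rose after withdrawal against TGFb, by 2.11 ± 0.26 (adjusted p = 0.0484). Endothelial markers (5 measured) read 3.68 to 3.99 on 5 arrays and 4.56 with 5-AZA, where PECAM1 alone of them was called. What share these marker changes had in the carrier values was not tested. In bulk RNA, fewer cells of a type and less RNA per cell cannot be told apart.

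**Figure D1:**
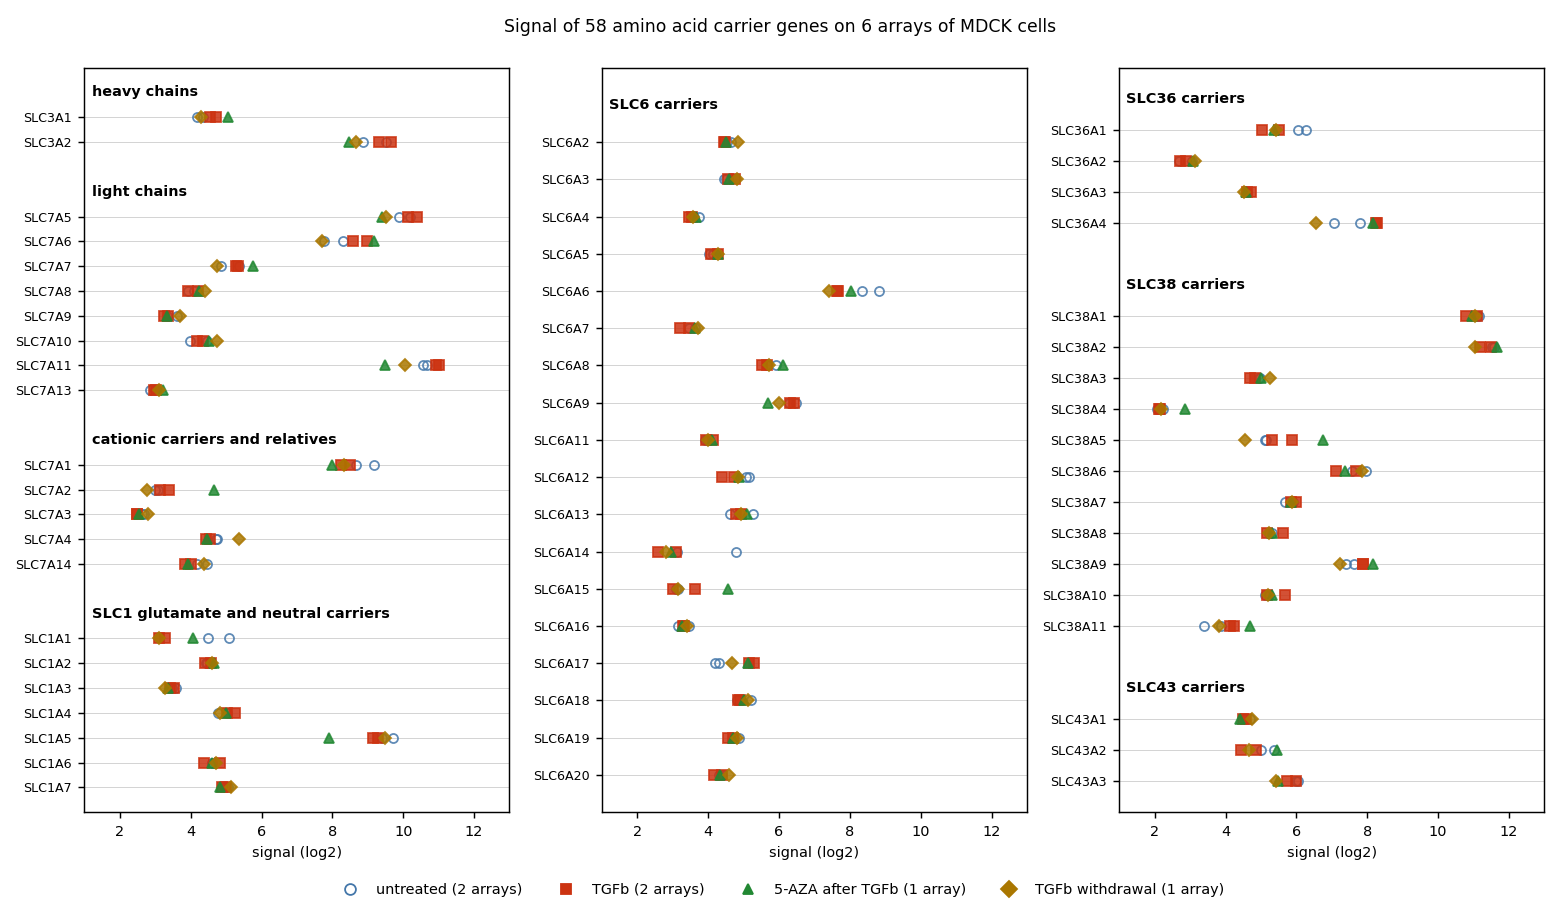
Each row is 1 carrier gene and each point its log2 signal on 1 array, for 58 genes in 8 groups by role. Open circles are untreated, squares TGFb, triangles 5-AZA after TGFb and diamonds withdrawal. The rows of 24 of the 58 span less than 0.5, while SLC38A5 and SLC6A14 span over 2.

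The span from the lowest to the highest array had a median of 0.63 on the log2 scale over the carriers, beside 0.63 over all probe sets, and ran from 0.21 for SLC36A3 to 2.22 for SLC38A5. It was under 0.5 for 24 carriers (41.4%, beside 35.5% of all probe sets), at least 1 for 17 (29.3%, beside 25.2%) and at least 2 for 2. For scale, the 2 untreated arrays differed by a median of 0.16 per carrier and the 2 TGFb arrays by 0.17. The widest gap within a group was that of SLC6A14, whose untreated arrays read 3.11 and 4.78. In all 5 comparisons, 3 carriers were called at least once (SLC7A11, SLC1A5 and SLC7A2), each on the 5-AZA array, and 55 were never called.

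TGFb for 30 days was set against no treatment first. Limma called 0 of 58, where 1.64% of all probe sets were called, and the unadjusted p was under 0.05 for 8 carriers (4 higher, 4 lower; 14.8% of all probe sets). The median difference was −0.04, beside −0.01 over all probe sets, and 47 of the 58 lay within 0.5 of 0. Differences of at least 1 were seen for 2 carriers, or 3.45%, beside 4.78% of all probe sets. For 29 of the 58 the untreated and TGFb arrays did not overlap, against 46.1% of all probe sets. The share of carriers was near the background in each of these counts.

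The glutamate carrier SLC1A1, which also brings cysteine into cells and recovers glutamate in the kidney tubule, had the largest difference. It read 4.49 and 5.08 on the untreated arrays and 3.11 and 3.29 on the TGFb arrays. All TGFb values lay below both untreated values, a difference of −1.59 ± 0.24 (adjusted p = 0.0569), which missed the threshold. Its 95% interval ran from −2.20 to −0.98. SLC6A17, a carrier of neutral amino acids into synaptic vesicles, lay the other way, at 4.30 and 4.20 untreated and 5.29 and 5.15 under TGFb. Its difference was 0.97 ± 0.15 (adjusted p = 0.0608), with no overlap between the groups. SLC1A1 and SLC6A17 were among the dimmer carriers (means of 3.86 and 4.79 over the arrays), and their detection is unknown. Both passed when only the 15947 named genes were tested (adjusted p = 0.00546 and 0.0101), as did SLC6A6 and SLC36A1 on the lower side. For this setting, here and below, the share of all named genes called is not given.

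SLC6A6, the taurine carrier, read 8.83 and 8.34 untreated and 7.63 and 7.66 under TGFb (−0.94 ± 0.21, adjusted p = 0.130). SLC6A12, the betaine and GABA carrier that was first cloned from MDCK cells, read 5.08 and 5.15 and then 4.73 and 4.39 (−0.55 ± 0.18, adjusted p = 0.252). Both carry osmolytes that kidney cells store under hypertonic stress, and for both the groups did not overlap. SLC36A1, which carries small amino acids with protons across lysosomal and apical membranes, read 6.26 and 6.05 and 5.50 and 5.03 (−0.89 ± 0.21, adjusted p = 0.154). Its relative SLC36A4, a carrier of proline and tryptophan, lay the other way, at 7.07 and 7.79 untreated and 8.25 and 8.27 under TGFb (0.83 ± 0.27, adjusted p = 0.253). SLC6A14, a broad carrier of neutral and cationic amino acids, differed by −1.11 ± 0.57 (adjusted p = 0.458), but 1 untreated array lay beside the TGFb arrays, which read 3.10 and 2.58.

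**Figure D2:**
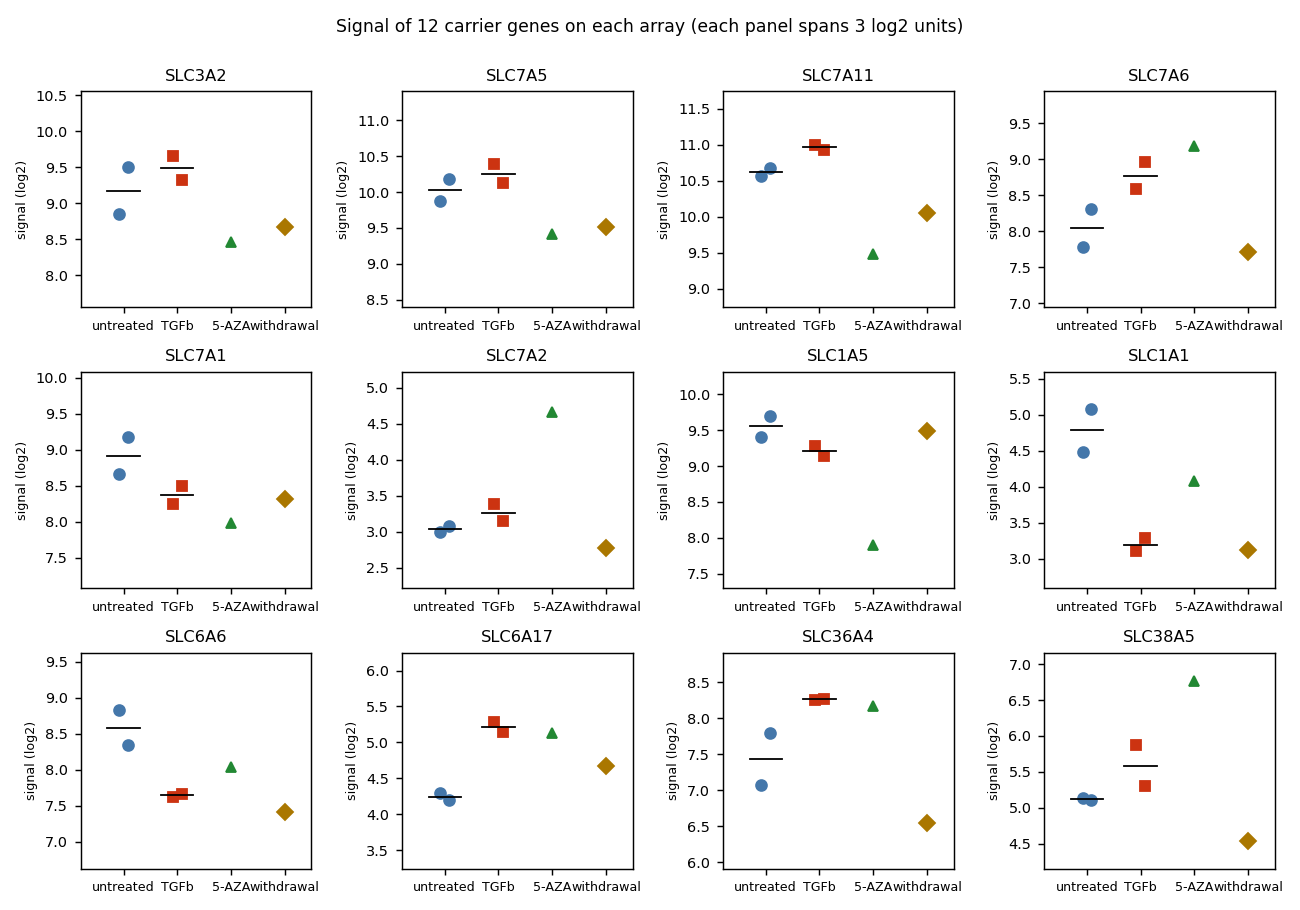
Log2 signals of 12 carriers on each array, with horizontal bars for the means of the 2 untreated and the 2 TGFb arrays and 1 point each for 5-AZA and withdrawal. Every panel spans 3 log2 units, so heights can be compared between panels, while positions cannot. SLC7A11 and SLC1A5 have their lowest point and SLC7A2 and SLC38A5 their highest with 5-AZA.

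Heavy chains come first by role. SLC3A2 (CD98 heavy chain) carries most SLC7 light chains to the surface. Its probe set read 8.85 and 9.50 on the untreated arrays, 9.65 and 9.33 under TGFb, 8.46 with 5-AZA and 8.67 after withdrawal. The TGFb arrays lay inside or just above the range of the untreated ones (0.31 ± 0.27, adjusted p = 0.670), and the 5-AZA and withdrawal arrays lay below all 4 of them. Against TGFb, the 5-AZA array differed by −1.03 ± 0.33 (adjusted p = 0.269) and the withdrawal array by −0.82 ± 0.33 (adjusted p = 0.377), neither called. SLC3A1, the heavy chain of the tubular cystine carrier and a gene mutated in cystinuria, read 4.35 and 4.16 untreated, 4.72 and 4.55 under TGFb, 5.06 with 5-AZA and 4.30 after withdrawal. Its largest difference was 0.81 ± 0.20 for 5-AZA against untreated (adjusted p = 0.116).

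Among the 8 light chains, SLC7A11 gave the calls. SLC7A11 (xCT) imports cystine in exchange for glutamate and so feeds glutathione synthesis. It read 10.56 and 10.67 on the untreated arrays and 11.00 and 10.93 under TGFb. The 5-AZA array read 9.49 and the withdrawal array 10.06, so both single arrays lay below all 4 replicated ones. With 5-AZA it fell by 1.48 on the log2 scale against TGFb, 2.79-fold (adjusted p = 0.0419), and by 1.13 against untreated, 2.19-fold (adjusted p = 0.0437). Without any 1 of the 4 replicated arrays, which leaves 1 residual degree of freedom, both calls ended (adjusted p = 0.0956 to 0.239 and 0.107 to 0.124), while the differences ran from −1.51 to −1.45 and from −1.19 to −1.08. TGFb itself gave a difference of 0.35 ± 0.15 (adjusted p = 0.368), and the withdrawal array lay −0.91 ± 0.18 from TGFb (adjusted p = 0.130).

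SLC7A5 (LAT1) exchanges large neutral amino acids such as leucine. It read 9.88 and 10.18 untreated, 10.38 and 10.12 under TGFb, 9.41 with 5-AZA and 9.52 after withdrawal. The order of the arrays was like that of SLC3A2, with both single arrays lowest, but no difference was called. The largest were −0.84 ± 0.23 for 5-AZA against TGFb (adjusted p = 0.219) and −0.73 ± 0.23 for withdrawal against TGFb (adjusted p = 0.274). SLC7A6, which with SLC3A2 exchanges cationic for neutral amino acids, had another order. It read 7.78 and 8.31 untreated, 8.58 and 8.97 under TGFb, 9.18 with 5-AZA and 7.71 after withdrawal, so TGFb and 5-AZA arrays lay above the others. The differences were 0.73 ± 0.25 for TGFb against untreated (adjusted p = 0.280), −1.07 ± 0.31 for withdrawal against TGFb (adjusted p = 0.243) and 1.14 ± 0.31 for 5-AZA against untreated (adjusted p = 0.141).

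Its close relative SLC7A7, mutated in lysinuric protein intolerance, read 4.84 and 5.35 untreated, 5.34 and 5.27 under TGFb, 5.75 with 5-AZA and 4.74 after withdrawal. The 5-AZA array was highest and the withdrawal array lowest, as for SLC7A6, again with no call. The other 4 light chains are SLC7A8 (LAT2), SLC7A9 (the tubular partner of SLC3A1), SLC7A10 and SLC7A13, and each lay within 0.51 of 0 in every comparison. SLC7A6OS, which lies next to SLC7A6 in the RefSeq gene order of assembly UU_Cfam_GSD_1.0, read 5.92 to 6.21 on all 6 arrays, and its largest difference was −0.21.

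The cationic carriers SLC7A1, SLC7A2 and SLC7A3 bring in arginine, lysine and ornithine, and SLC7A4 and SLC7A14 are their relatives. SLC7A2 was the only carrier called higher. It read 2.99 and 3.08 untreated, 3.39 and 3.14 under TGFb, 4.66 with 5-AZA and 2.77 after withdrawal. The 5-AZA array stood above all others, by 1.63 ± 0.20 against untreated, a 3.09-fold rise (adjusted p = 0.0236), and 1.40 ± 0.20 against TGFb (adjusted p = 0.0638, not called). The call against untreated ended without any 1 of the 4 replicated arrays (adjusted p = 0.0668 to 0.0859), with differences of 1.58 to 1.67. SLC7A2 was among the 37 dimmer probe sets, and its detection on the other arrays is unknown.

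SLC7A1, the broadly expressed arginine carrier, read 8.67 and 9.17 untreated, 8.25 and 8.50 under TGFb, 7.98 with 5-AZA and 8.31 after withdrawal. All 4 arrays of cells that had met TGFb lay below both untreated arrays, with differences from untreated of −0.54 ± 0.23, −0.94 ± 0.28 and −0.60 ± 0.28 for TGFb, 5-AZA and withdrawal (adjusted p = 0.364, 0.168 and 0.565). SLC7A4 read 4.75 and 4.71 untreated, 4.55 and 4.43 under TGFb, 4.45 with 5-AZA and 5.38 after withdrawal. The withdrawal array stood above the other 5, by 0.89 ± 0.18 against TGFb (adjusted p = 0.135) and 0.65 ± 0.18 against untreated (adjusted p = 0.406). For SLC7A3 and SLC7A14 the largest differences were 0.30 and 0.43, both for withdrawal against TGFb.

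The SLC1 family holds the glutamate carriers SLC1A1, SLC1A2, SLC1A3, SLC1A6 and SLC1A7 and the neutral exchangers SLC1A4 and SLC1A5. SLC1A5 (ASCT2) takes up glutamine in exchange for other neutral amino acids. It read 9.41 and 9.70 on the untreated arrays, 9.27 and 9.15 under TGFb and 9.48 after withdrawal, but 7.91 with 5-AZA. The 5-AZA array lay more than 1 log2 unit below the lowest of the others. Against untreated it fell by 1.65, 3.13-fold (adjusted p = 0.0272), and against TGFb the difference was −1.30 ± 0.21 (adjusted p = 0.0792, not called). Without any 1 of the 4 replicated arrays the call against untreated ended (adjusted p = 0.0630 to 0.0870), with differences of −1.79 to −1.50. The relative SLC1A4 (ASCT1), a carrier of serine and alanine, read 4.76 to 5.25 on all arrays.

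SLC1A1 was the 1 glutamate carrier with a wide span. It was among the dimmer carriers, and its detection on the TGFb and withdrawal arrays is unknown. Its withdrawal array read 3.11, close to the TGFb arrays and −1.67 ± 0.29 from untreated (adjusted p = 0.311), and its 5-AZA array 4.08, between the groups. CDH1, which encodes the adhesion molecule E-cadherin, read 6.25 and 7.24 under TGFb and 11.34 after withdrawal, beside 11.64 and 11.43 untreated. For SLC1A1 the difference of withdrawal from TGFb was −0.08 ± 0.29, with an interval from −0.83 to 0.66, and for CDH1 it was 4.60 ± 0.43 (adjusted p = 0.0292). SLC1A2, SLC1A3, SLC1A6 and SLC1A7 stayed within 0.26 of 0 in all 5 comparisons.

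The 18 SLC6 genes belong to a family of mostly sodium-coupled carriers, of which several move neurotransmitters, osmolytes or creatine and not protein amino acids. SLC6A6 read 8.04 with 5-AZA and 7.42 after withdrawal, the latter −1.17 ± 0.26 from untreated (adjusted p = 0.350). All 4 arrays of cells that had met TGFb were thus below both untreated arrays. The share of all probe sets with this order is not given, here or for SLC7A1 and SLC36A1. SLC6A15, a carrier of branched-chain amino acids known from brain, was among the dimmer carriers. It read 3.09 and 3.15 untreated, 3.01 and 3.62 under TGFb, 3.16 after withdrawal and 4.56 with 5-AZA. The 5-AZA array was highest, by 1.44 ± 0.29 against untreated (adjusted p = 0.0767) and 1.24 ± 0.29 against TGFb (adjusted p = 0.167). SLC6A17 read 5.14 with 5-AZA and 4.67 after withdrawal, the latter between the untreated and TGFb arrays.

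SLC6A9, the glycine carrier GlyT1, read 6.27 and 6.48 untreated, 6.42 and 6.30 under TGFb, 5.99 after withdrawal and 5.68 with 5-AZA, its lowest array (−0.70 ± 0.20 against untreated, adjusted p = 0.153). The creatine carrier SLC6A8 read 5.66 and 5.91 untreated, 5.65 and 5.52 under TGFb and 5.73 after withdrawal, and was highest with 5-AZA at 6.12 (0.53 ± 0.20 against TGFb, adjusted p = 0.357). SLC6A14 read 2.94 and 2.81 on the single arrays, and its standard errors, 0.57 and above, were the largest of the carriers. The tubular carriers SLC6A18, SLC6A19 and SLC6A20, which recover neutral and imino acids in the proximal tubule, and the monoamine carriers SLC6A2, SLC6A3 and SLC6A4 each stayed within 0.40 of 0. So did the glycine carrier SLC6A5, the GABA carriers SLC6A11 and SLC6A13, the proline carrier SLC6A7 and SLC6A16.

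The 11 SLC38 genes include the sodium-coupled neutral carriers SNAT1 and SNAT2. SLC38A2 (SNAT2), which is induced by amino acid shortage and by hypertonicity, read 11.59 and 11.51 untreated, 11.18 and 11.49 under TGFb, 11.67 with 5-AZA and 11.03 after withdrawal. SLC38A1 (SNAT1), its direct neighbour in the RefSeq gene order, read 10.78 to 11.17 on all 6 arrays. Neither was called, and their largest differences were −0.52 ± 0.21 (withdrawal against untreated) and −0.18 ± 0.18 (TGFb against untreated). SLC38A4, in the same stretch of genes, read 2.07 to 2.24 on 5 arrays and 2.85 with 5-AZA (0.72 ± 0.18 against TGFb, adjusted p = 0.195).

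SLC38A5 (SNAT5), a glutamine and glycine carrier, had the widest span of all carriers. It read 5.14 and 5.11 untreated, 5.87 and 5.30 under TGFb, 6.76 with 5-AZA and 4.54 after withdrawal, with 5-AZA highest and withdrawal lowest. The difference of 5-AZA from untreated was 1.64 ± 0.28, which just missed the call (adjusted p = 0.0513). It passed under quantile normalization (1.68, adjusted p = 0.0490), with the dimmer probe sets dropped (adjusted p = 0.0279) and over named genes alone (adjusted p = 0.00759). It stayed uncalled under median centring, the intensity trend and robust moderation, and in every fit without 1 replicated array. SLC38A9, the lysosomal arginine sensor of mTORC1, had the same order of group means. It read 7.39 and 7.61 untreated, 7.88 and 7.88 under TGFb, 8.16 with 5-AZA and 7.22 after withdrawal, with differences of 0.66 ± 0.19 for 5-AZA against untreated (adjusted p = 0.165) and −0.66 ± 0.19 for withdrawal against TGFb (adjusted p = 0.249).

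SLC38A11 read 3.86 and 3.38 untreated, 4.14 and 4.25 under TGFb, 4.70 with 5-AZA and 3.81 after withdrawal (1.08 ± 0.26 for 5-AZA against untreated, adjusted p = 0.109). The glutamine carrier SLC38A3 reached 0.50 for withdrawal against TGFb, and SLC38A6, SLC38A7, SLC38A8 and SLC38A10 differed by at most 0.43. In the SLC36 family, SLC36A1 read 5.37 with 5-AZA and 5.44 after withdrawal, so that all 4 arrays of cells that had met TGFb lay below both untreated arrays. SLC36A4 read 8.17 with 5-AZA, just below the TGFb arrays, and 6.55 after withdrawal, its lowest array. It had the largest difference of any carrier between withdrawal and TGFb, −1.71 ± 0.33 (adjusted p = 0.122). SLC36A2 and SLC36A3, which follow SLC36A1 in the RefSeq gene order, differed by at most 0.32.

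Of the 3 SLC43 genes, SLC43A2 (LAT4), a facilitator of large neutral amino acids, read 5.36 and 4.99 untreated, 4.44 and 4.86 under TGFb, 5.45 with 5-AZA and 4.67 after withdrawal. Its largest difference was 0.80 ± 0.27 for 5-AZA against TGFb (adjusted p = 0.302). SLC43A3, known as a carrier of purine bases, read 5.997 and 6.06 untreated, 5.9999 and 5.74 under TGFb, 5.47 with 5-AZA and 5.43 after withdrawal. Both single arrays lay below all replicated ones, by −0.56 ± 0.20 and −0.60 ± 0.20 against untreated (adjusted p = 0.244 and 0.467). The facilitator SLC43A1 (LAT3) stayed within 0.23 of 0.

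**Figure D3:**
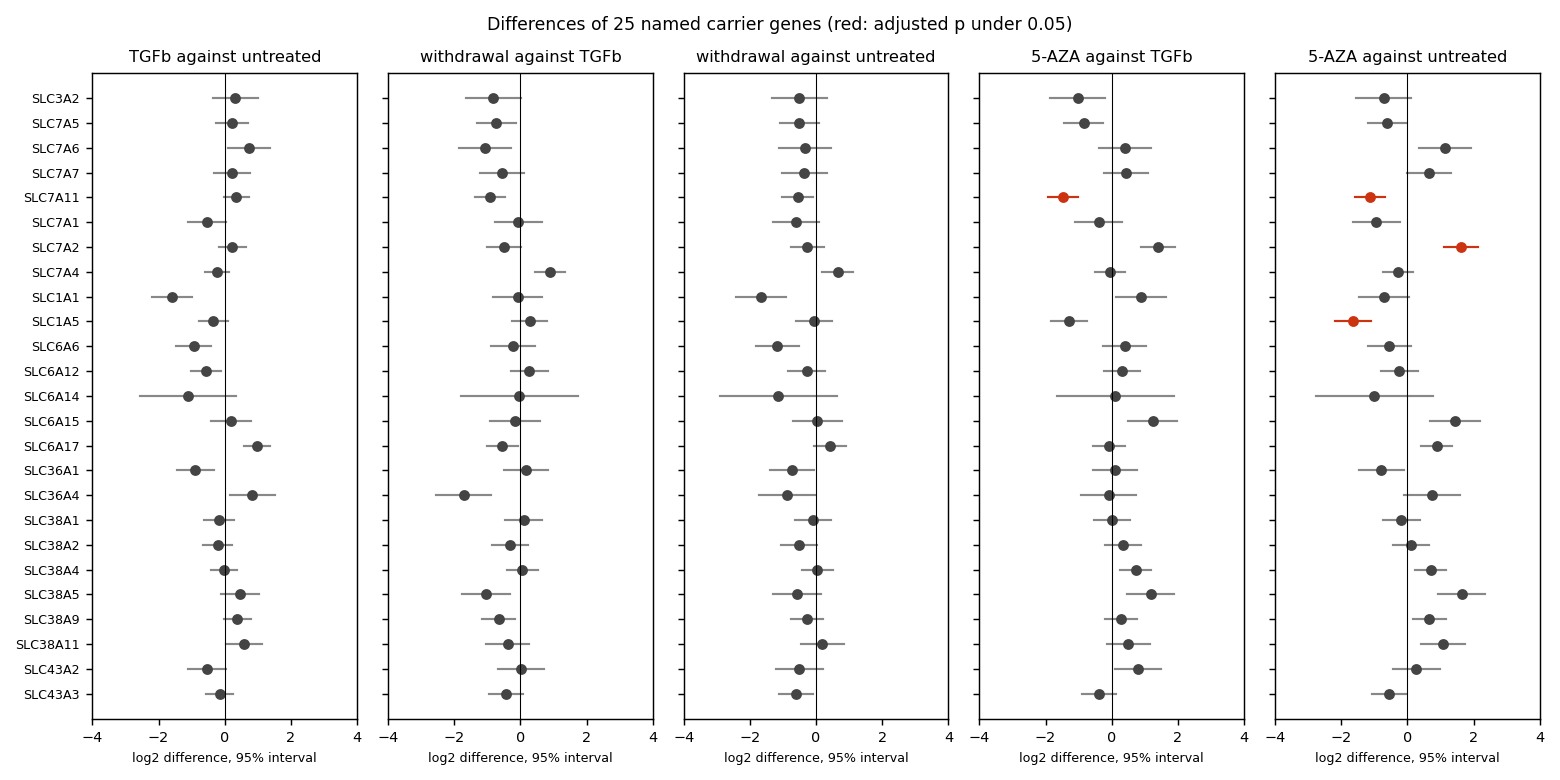
Log2 differences (points) with 95% intervals (lines) of the 25 named carriers in the 5 comparisons, with called differences in red. The calls are SLC7A11 against TGFb and SLC7A11, SLC7A2 and SLC1A5 against untreated, all on the 5-AZA array. The interval of SLC6A14 is the widest in each panel.

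The withdrawal array asked what the carriers read once TGFb was removed. Against TGFb limma called 0 of 58 (0.839% of all probe sets), and the unadjusted p was under 0.05 for 9 (2 higher, 7 lower), beside 13.5% of all probe sets. The median difference was 0.06, beside 0.02 over all probe sets. Among the 21 brighter carriers 16 lay lower after withdrawal and 5 higher (median −0.31, beside 0.003 over all brighter probe sets). Among the 37 dimmer ones 11 lay lower and 26 higher (median 0.11), with no median of all dimmer probe sets given here. Differences of at least 1 were those of SLC36A4, SLC7A6 (−1.07 ± 0.31) and SLC38A5 (−1.04 ± 0.28), all lower, or 5.17% of carriers beside 5.83% of all probe sets. Over named genes alone SLC36A4 (adjusted p = 0.0176), SLC7A11 (adjusted p = 0.0356) and SLC7A4 (adjusted p = 0.0392) passed.

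Against untreated cells limma called 0 of 58 carriers after withdrawal, as it did 0% of all probe sets. The unadjusted p was under 0.05 for 7 carriers (1 higher, 6 lower), beside 9.77% of all probe sets. Of the 21 brighter carriers 18 lay below untreated and 3 above (median −0.39), beside a median of 0.02 over the 16147 brighter probe sets. Among the 37 dimmer carriers 27 lay above and 10 below (median 0.11), again with no median of all dimmer probe sets beside it. Differences of at least 1 were those of SLC1A1, SLC6A6 and SLC6A14 (−1.14 ± 0.69), 5.17% of carriers beside 3.50% of all probe sets. No brightness class was tested as a set, and the array is a single one.

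The 5-AZA array asked how the carriers read when an inhibitor of DNA methylation followed TGFb. Against TGFb limma called 1 of 58, SLC7A11, which fell, where 1.04% of all probe sets were called and 0.189% were called lower. Unadjusted p was under 0.05 for 12 of the 58 carriers, 7 higher and 5 lower, a larger share than the 13.7% of all probe sets. Differences of at least 1 numbered 6, or 10.3%, beside 6.01% of all probe sets. These were SLC7A11, SLC1A5 and SLC3A2 on the lower side and SLC7A2, SLC6A15 and SLC38A5 (1.18 ± 0.28) on the higher. The median over all 58 was 0.07, beside −0.02 over all probe sets. Over named genes alone SLC1A5 (adjusted p = 0.0170), SLC7A2 (adjusted p = 0.0107) and SLC6A15 (adjusted p = 0.0496) also passed.

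Against untreated cells limma called 3 of 58 on the 5-AZA array, or 5.17%, where 3.65% of all probe sets were called. SLC1A5 and SLC7A11 fell (1.41% of all probe sets did) and SLC7A2 rose (2.24%). Unadjusted p was under 0.05 for 16 of the 58 carriers, 9 higher and 7 lower, a larger share than the 17.8% of all probe sets. Differences of at least 1 numbered 8, or 13.8%, beside 9.09% of all probe sets, and the median over the 58 was 0.02. Of the 58, 14 had their highest value on this array, a larger share than the 18.6% of all probe sets. On the same array 8 had their lowest value, a smaller share than the 23% of all probe sets. Those 8 were SLC1A5, SLC1A7, SLC3A2, SLC6A9, SLC7A1, SLC7A5, SLC7A11 and SLC43A1. The light chains SLC7A6 and SLC7A7 were among the 14 with their highest value there. The array correlated with the other 5 at 0.947 to 0.970, the lowest of all pairs being with withdrawal.

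Other genes of amino acid supply gave few calls. Of 22 measured genes of the amino acid response through GCN2 and ATF4, none was called by limma in any comparison. The unadjusted p was under 0.05 for 8 of them under TGFb (36.4%, beside 14.8% of all probe sets), 10 for 5-AZA against TGFb (45.5%, beside 13.7%) and 11 for 5-AZA against untreated (50%, beside 17.8%). After withdrawal it was under 0.05 for 7 against TGFb (31.8%, beside 13.5%) and 4 against untreated (18.2%, beside 9.77%). Their median difference was near 0 under TGFb, −0.39 for withdrawal against TGFb, −0.16 for withdrawal against untreated, −0.44 for 5-AZA against TGFb and −0.52 for 5-AZA against untreated, where the medians over all probe sets lay between −0.03 and 0.02. Under TGFb 11 of the 22 lay higher and 11 lower, the lowest being NUPR1 (−1.32 ± 0.21, adjusted p = 0.0640). With 5-AZA, 18 of the 22 lay below TGFb and 17 below untreated. SHMT2, the mitochondrial serine hydroxymethyltransferase, read 9.24 and 9.22 under TGFb and 7.70 with 5-AZA (−1.53 ± 0.25, adjusted p = 0.0799). MTHFD2, an enzyme of mitochondrial folate metabolism, read 8.38 and 8.74 under TGFb and 7.33 after withdrawal (−1.23 ± 0.25, adjusted p = 0.133). ALDH1L2 was highest with 5-AZA, at 9.86, beside 9.56 and 9.17 under TGFb and 8.49 and 7.21 untreated. Its differences from untreated were 1.52 ± 0.44 for TGFb and 2.01 ± 0.54 for 5-AZA (adjusted p = 0.217 and 0.141). SHMT2 also lay above untreated under TGFb (1.02 ± 0.20, adjusted p = 0.105). After withdrawal ALDH1L2 lay below TGFb, as MTHFD2 did (−0.98 ± 0.54 for ALDH1L2, adjusted p = 0.524).

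Of 18 cytosolic aminoacyl-tRNA synthetases, the enzymes that charge tRNAs, limma called none. The unadjusted p was under 0.05 for 6 under TGFb (33.3%, beside 14.8% of all probe sets) and 7 for 5-AZA against TGFb (38.9%, beside 13.7%). It was under 0.05 for 3 for 5-AZA against untreated (16.7%, beside 17.8%) and 3 for withdrawal against TGFb (16.7%, beside 13.5%). For withdrawal against untreated it was so for 2 (11.1%, beside 9.77%). Under TGFb 17 lay higher and 1 lower (median 0.29), and with 5-AZA 17 lay below TGFb and 1 above (median −0.42), beside medians of −0.01 and −0.02 over all probe sets. These 2 comparisons share the TGFb arrays. HARS1 reached 1.06 ± 0.18 under TGFb (adjusted p = 0.0706) and CARS1 −1.15 ± 0.19 for 5-AZA against TGFb (adjusted p = 0.0799).

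Among 16 measured genes of cystine use and glutathione, 1 rose and 1 fell, both for 5-AZA against untreated (6.25% each way, beside 2.24% and 1.41% of all probe sets). TXNRD1, a thioredoxin reductase, read 8.70 and 9.10 untreated, 10.19 and 10.16 under TGFb, 10.55 with 5-AZA and 9.26 after withdrawal, so TGFb and 5-AZA arrays lay above the rest. It rose by 1.65 ± 0.23 with 5-AZA (adjusted p = 0.0327). CTH, which makes cysteine from cystathionine, read 8.24 and 8.79 untreated, 8.16 and 8.23 under TGFb, 6.80 with 5-AZA and 8.93 after withdrawal. With 5-AZA it fell by 1.71 against untreated (adjusted p = 0.0442), and its 5-AZA array was its lowest, as for SLC7A11.

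Of 32 genes by which mTORC1 senses amino acids, 2 fell with 5-AZA against untreated (6.25%, beside 1.41% of all probe sets) and none was called elsewhere. Both encode Rag GTPases, which recruit mTORC1 to the lysosome. RRAGB read 6.40 and 6.56 untreated, 5.56 and 5.35 under TGFb, 4.38 with 5-AZA and 6.09 after withdrawal, and fell by 2.10 (adjusted p = 0.0125). RRAGD read 8.22 and 7.75 untreated, 6.70 and 6.08 under TGFb, 5.81 with 5-AZA and 6.86 after withdrawal, and fell by 2.17 (adjusted p = 0.0442). For both, every array of cells that had met TGFb lay below both untreated arrays, an order whose share over all probe sets is not given. The TGFb differences were −1.03 ± 0.16 (adjusted p = 0.0637) and −1.59 ± 0.28 (adjusted p = 0.0792).

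Of 24 enzymes of glutamine, serine, proline, arginine and branched-chain metabolism limma called none. The unadjusted p was under 0.05 for 2 to 6 of them in the 5 comparisons (8.33% to 25%, beside 9.77% to 17.8% of all probe sets). IDO1, which breaks down tryptophan, gave the widest differences, −2.40 ± 0.90 for TGFb and 3.55 ± 1.11 for withdrawal against TGFb, with a large error. It read 6.73 and 3.92 on the untreated arrays. SAT1, which acetylates polyamines, lay at −1.03 ± 0.15 under TGFb (adjusted p = 0.0566). Among 21 other carriers of amino acids or peptides, SLC15A1, a peptide carrier of intestine and kidney, rose with 5-AZA against untreated by 1.21 ± 0.19 (adjusted p = 0.0405), the 1 call of that list (4.76%, beside 2.24% of all probe sets). It read 2.72 to 2.90 on 5 arrays and 4.02 with 5-AZA. All 6 values lay under the median of all probe set means, 4.99, and its detection is unknown. SLC16A10, which facilitates aromatic amino acids, read 5.23 and 6.32 untreated, 6.68 and 7.06 under TGFb, 7.41 with 5-AZA and 4.54 after withdrawal (−2.33 ± 0.48 for withdrawal against TGFb, adjusted p = 0.138).

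**Figure D4:**
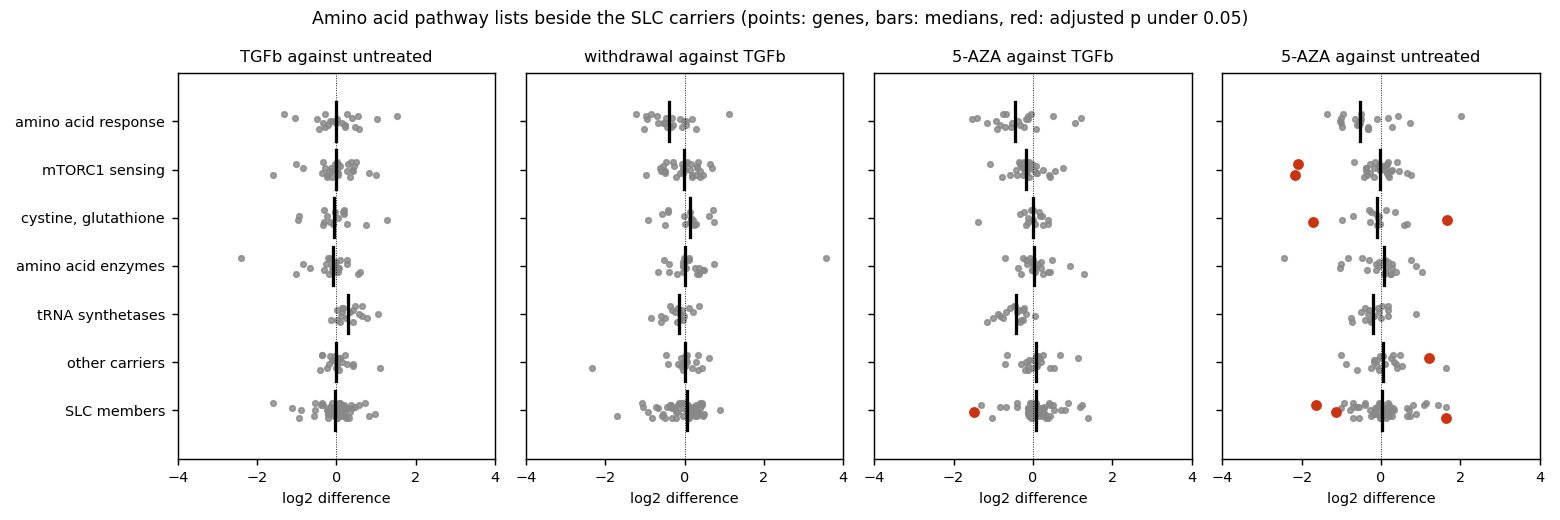
Log2 differences of single genes (points) with the median of each list (bars) for 6 amino acid pathway lists and the 58 carriers, in 4 comparisons, with called genes in red. The tRNA synthetases have medians of 0.29 under TGFb and −0.42 for 5-AZA against TGFb, while the carriers stay near 0 at −0.04 and 0.07.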

How the data were processed

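Total RNA from 6 MDCK samples was hybridised to single-colour Affymetrix arrays. The deposited log-scale values, one for each array and probe set, were read as log2. Per the submitters' processing notes, the authors made them with Affymetrix Expression Console 1.2. Not given in the sources used here are the log base, the probe summary and the background correction. Another base would multiply all differences by a constant.

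Carriers were named from the platform annotation, which gives 1 symbol for 16545 of 32293 probe sets, several for 370 and none for 15378. Of the 59 symbols 58 were found in the RefSeq table of assembly UU_Cfam_GSD_1.0 by entrez identifier, used for gene order. Limma 3.58.1 in R 4.3.3 fitted group means to all 6 arrays (lmFit, then eBayes without trend, not robust), with 2 residual and 3.10 prior degrees of freedom, and p-values were adjusted over all probe sets. The procedure was tested on simulated data. Tables were made in Python 3.11.15. The number of arrays limits the precision.

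Every carrier called in any comparison, the 10 largest differences of each, and 7 broadly expressed carriers were named, 25 in all, and others are named by range or family. The members and the pathway lists were chosen with earlier results of these data known. The alternatives were quantile normalization, median centring, an intensity trend, robust moderation, a signal filter, named genes only, averaged probe sets, a replicate block and each replicated array left out. Replicate numbers were not taken as pairs: the difference of replicate 1 from 2 in the untreated arrays correlated with that in the TGFb arrays at r = 0.0988 over all probe sets. Sequences were not used here.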

Additional observations from a re-analysis of the deposited data

How the results depend on the processing

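Under quantile normalization, median centring, the intensity trend, robust moderation and averaged probe sets (each carrier has 1), the carriers called numbered 0, 0, 0 and 1 for TGFb against untreated, withdrawal against TGFb, withdrawal against untreated and 5-AZA against TGFb. For 5-AZA against untreated they numbered 3, or 4 under quantile normalization. Averaging probe sets could not change the signal of a carrier with 1 probe set, so it is no check of these values. The signal filter, which tested 21 carriers, gave the same 5 counts, with SLC38A5 called and SLC7A2 not tested. With named genes only, 4, 3, 0, 4 and 9 carriers were called in the order above. This setting tests fewer genes and refits the moderation, and which of these moved the counts was not tested. The share of all named genes called under it is not given here, so the counts have no background beside them. Without any 1 replicated array the counts were 0 to 0 in all 5 comparisons, with 1 residual degree of freedom left. With the replicate block, 1 carrier was called for TGFb against untreated, SLC1A1 (adjusted p = 0.0309). A block could not be set for the single arrays. Of 788 values of named carriers over all alternatives, 754 kept their side of the threshold, 16 lost and 18 gained a call, and 6 uncalled ones changed sign. Most of the 754 were uncalled before and after, so that count says little about the called differences. All 16 losses came in the fits without 1 replicated array, and each called difference lost its call in all 4 of them. No called value reversed. The 5-AZA and withdrawal arrays have no replicate, and no background level is known.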
